A study of Rattus norvegicus with 47 samples.

Results

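The interferon response genes described here were 36 listed genes, taken by gene symbol from the annotation of the array. Of these, 35 had a probe set that named only that gene, and 1, Xaf1, was not analysed here. They stood among 14217 named genes on the array, and each was represented by its probe set with the highest mean over all 47 arrays. By role they were 2 receptor subunits, 6 signalling proteins and transcription factors, 14 antiviral effectors, 2 RNA sensors, 2 interferon-induced GTPases, 5 immunoproteasome genes and 4 genes of class I antigen processing.

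Interferons are secreted when cells sense viral RNA or other danger signals. They bind receptors on the cell surface, whose kinases activate STAT proteins, and STAT complexes with IRF9 then enter the nucleus and bind short DNA elements near the target genes. The products hinder viral replication, replace catalytic subunits of the proteasome and load peptides onto class I molecules. In liver, hepatocytes, Kupffer cells (the resident macrophages) and endothelial cells all carry interferon receptors, and retinoic acid (RA), the hormone-like acid made from vitamin A, is known to raise several interferon-induced genes in cultured cells.

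All rats were Sprague-Dawley females, and each Affymetrix array held liver RNA of 1 rat, so that replicates were separate animals. In the diet experiment the mothers had eaten a vitamin A-deficient diet while nursing, and the daughters ate a purified diet from weaning until 8 weeks of age. That diet held no retinol (deficient, 5 rats), 0.4 mg retinol per kg (marginal, 7 rats), 4 mg per kg (adequate, 6 rats) or 100 mg per kg (supplemented, 2 rats). In the RA time course, vitamin A-deficient females of 8 weeks were given all-trans-RA (about 100 µg) 3 h (3 rats), 6 h (3 rats), 10 h (4 rats) or 16 h (3 rats) before they were killed, and 3 deficient rats given vehicle were killed at 0 h. In the intravenous experiment, females of 8 weeks on a stock diet, without food for 16 h, received about 25 µg of RA on albumin (10 µg per 100 g body weight) through an iliac vein under light isoflurane. They were killed after 30, 60 or 90 min (3 rats each), and 2 rats given vehicle were killed at 0 min. Both vehicle groups, which the sample titles call untreated, were killed at the start of their course. Time since handling and the action of RA therefore cannot be told apart in either experiment. Whole liver was sampled, so fewer cells of a type and less RNA per cell cannot be told apart.

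The deposited values are log2 signals, with the median of each array at 0. Differences below are in log2 units with the standard error (SE) of the limma fit, and a gene was called when its limma p, Benjamini-Hochberg adjusted over all probe sets tested in its experiment, was under 0.05. All 35 measured members passed the filter on low values in each experiment. The median of 7 hepatocyte markers was 7.79 to 9.79 over all groups, so the tissue label held.

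Several arrays stood apart. Deficient arrays 1 and 2 had a narrow spread of values (SD over all probe sets of 1.95 and 2.08, against 2.32 or more on the other diet arrays). In the time course 16 h arrays 1 and 2 had the narrowest spread, by less (2.4 and 2.39, against 2.48 or more on its other arrays). Intravenous arrays ranged from 2.36 to 2.47. On such arrays transcripts above the array median read lower. Vehicle array 2 of the time course had Lrat at 2.62 and Cyp2c22 at 7.11, against -0.38 and -4.18 (Lrat) and 2.54 and 2.83 (Cyp2c22) on the other 2 vehicle arrays, which goes against its deficiency label, since both genes depend on vitamin A. Deficient array 5 and adequate array 5 had a high difference between 3' and 5' Gapdh probe sets (0.92 and 1.37), as had vehicle array 1 of the time course (0.95), followed by 90 min array 1 (0.81) and 6 h array 1 (0.78). The labels of the diet arrays carry database numbers in 2 separate runs, with 12 arrays in the first and 8 in the second. What a run stands for is not given in the sources used here, and it was a covariate in the diet fit. Deficient arrays 1 to 3, marginal arrays 1 to 3 and adequate arrays 1 and 2 were in the second run.

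**Figure D1:**
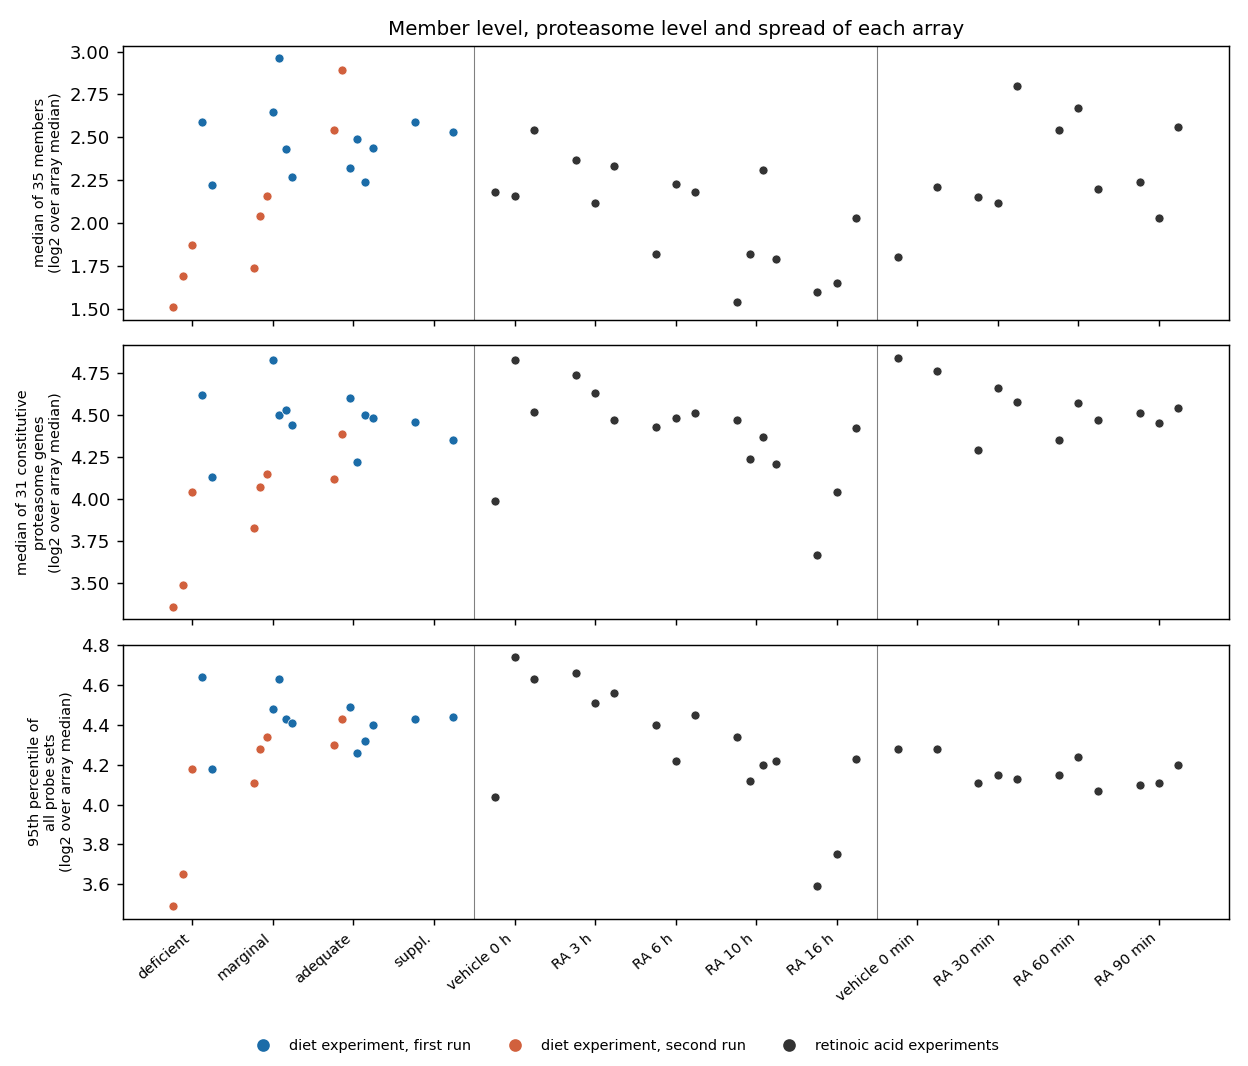
Median over the 35 measured members on each of the 47 arrays (vertical axis, log2 signal over the array median), with arrays placed by group along the horizontal axis. The deficient arrays lay at 1.51, 1.69, 1.87, 2.59 and 2.22, and the adequate arrays between 2.24 and 2.89.

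Promoter windows of the members were searched for sequence motifs, which the choice of genes did not use directly. Interferon acts through short DNA elements near its target genes, so shares of its motifs describe the list and do not test it. RefSeq promoter windows of build GRCr8, which run from 250 bases before to 50 bases after a gene's start, were found for 28 of the 35 measured members. The core of the interferon-stimulated response element (GAAA, any 2 bases, GAAA, on either strand) was in 19 of these 28 windows (67.9%) and in 1312 of all 33469 windows (3.92%). The gamma-activated site TTCNNNGAA, a palindrome bound by STAT dimers, was in 8 of 28 windows (28.6%) and in 8.87% of all. A direct repeat of the RA receptor motif (AGGTCA, any 5 bases, AGGTCA, on either strand) was in 0 of the 28 windows and in 0.00896% of all, which says only that these letters were not in the windows. A match is a description of letters and not a measured binding site, and the motifs can overlap.

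Stretches from 4 of these windows are shown because the first 3 belong to members called in the comparisons below and Irf7 is the factor that amplifies the response. Each is written 5′ to 3′ on the strand of its gene, with matches to the response element core (on the other strand it reads TTTC, any 2 bases, TTTC) and to TTCNNNGAA in capitals.
Igtp, chr10:42874918-42874968, + strand, 129 to 79 bases before the start: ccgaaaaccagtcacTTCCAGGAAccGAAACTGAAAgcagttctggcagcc
Ifi44l, chr2:243328617-243328688, + strand, 106 to 35 bases before the start: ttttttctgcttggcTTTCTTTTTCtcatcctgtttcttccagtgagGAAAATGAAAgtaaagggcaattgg
Bst2, chr16:18255068-18255117, - strand, 150 to 101 bases before the start: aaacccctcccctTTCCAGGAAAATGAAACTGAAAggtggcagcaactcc
Irf7, chr1:205800068-205800107, - strand, 84 to 45 bases before the start: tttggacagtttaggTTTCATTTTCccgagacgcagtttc
In Bst2 a gamma-activated site and 2 response element cores overlap, and in Igtp the same 2 motifs lie next to each other. The Psmb8 window held a core that spans the start, and the windows of Psmb9 and Oasl held no match to the core. No window was given for Ifi27l2b, Rtp4, Isg15, Usp18, Ifit2, Dhx58 or Mx2.

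Deficient livers were set against adequate ones to ask which members depend on retinol in the diet. Ifi27l2b, Ifi44l, Rtp4, Igtp, Psmb8 and Psmb9 were lower in deficient livers, by 1.71-fold to 2.54-fold. These 6 of 35 members were called lower and 0 higher, where 1% of all probe sets tested were called lower. The members were chosen with earlier results of these data known, so such shares describe the list and do not test it. At an unadjusted p under 0.05, 17 members were lower, against 9.84% of all probe sets. Of the 35, 30 had a change below 0, and the median change was -0.5. Among the 13707 probe sets above the array median, where all 35 members lay, the median change was -0.2 and 71.9% were below 0.

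Ifi27l2b, a small mitochondrial protein strongly induced by type I interferon (probe set 1376845_at), stood at 4.54, 4.83, 5.83, 6.56 and 6.61 on the deficient arrays. On adequate arrays it ranged from 6.85 to 7.62, with a median of 7.19. All 5 deficient arrays lay below every adequate array, and the fitted difference was -1.32 ± 0.25 (2.5-fold lower, adjusted p = 0.00303, limma). Ifi44l (1379748_at), an interferon-induced protein that restrains the response, stood at 0.9, 0.77, 1.55, 1.32 and 0.26 on deficient arrays and at 1.81 to 3.05 on adequate arrays (median 2.13). Again the groups did not overlap, and the difference was -1.34 ± 0.28 (2.54-fold, adjusted p = 0.00894, limma). Rtp4 (1379285_at), a receptor transporting protein that binds viral RNA, stood at 2.19, 2.34, 3.59, 4.61 and 3.54 in deficient livers and at 4.28 to 5.03 in adequate livers (median 4.48). Deficient array 4 lay within the adequate range, and the difference was -1.13 ± 0.25 (2.19-fold, adjusted p = 0.0147, limma).

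Igtp (1397304_at), a GTPase that acts on the vacuoles of intracellular parasites, stood at 1.51, 1.84, 2.44, 4.14 and 3.46 in deficient livers and at 3.88 to 4.36 in adequate livers (median 4.14). Deficient arrays 1, 2, 3 and 5 lay below every adequate array and array 4 lay among them, and the difference was -1.14 ± 0.23 (2.21-fold, adjusted p = 0.00514, limma). The other GTPase, Gbp2, had a difference of 0 and was not called. Its sign also changed with the run, from 0.8 ± 0.47 on first-run arrays to -0.93 ± 0.35 on second-run ones. Psmb8 (1367786_at) and Psmb9 (1370186_at) encode catalytic subunits that replace constitutive ones in the immunoproteasome. Psmb8 stood at 3.41, 3.06, 3.75, 5.03 and 4.62 on deficient arrays and at 4.62 to 5.45 on adequate arrays (median 5.29), a difference of -0.92 ± 0.18 (1.9-fold, adjusted p = 0.00465, limma). Psmb9 stood at 2.79, 2.56, 2.87, 4.34 and 3.67 against 3.58 to 4.88 (median 4.42), a difference of -0.78 ± 0.18 (1.71-fold, adjusted p = 0.0236, limma). For both subunits 3 of 5 deficient arrays, those of the second run, lay below every adequate array. Within the first run both deficient arrays were also below the 4 adequate arrays for Psmb8 (5.29 to 5.45), and array 5 was for Psmb9 (4.3 to 4.88).

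Some of these calls rested on single arrays. The calls of Ifi27l2b, Igtp and Psmb8 held with each of the 11 deficient and adequate arrays left out in turn, with adjusted p up to 0.027, 0.0452 and 0.038. Ifi44l was not called without deficient array 5 (-1.14, adjusted p = 0.0786) or adequate array 2 (-1.15, adjusted p = 0.0818). Rtp4 was not called without deficient array 1 (-0.95, adjusted p = 0.0634), 2 (-0.99, 0.0671) or 5 (-1.08, 0.066), or without adequate array 1 (-1.04, 0.0765) or 2 (-1.01, 0.0933). Psmb9 was not called without deficient array 2 (-0.71, adjusted p = 0.0791) or 5 (-0.71, 0.108), or without adequate array 1 (-0.79, 0.0635), 2 (-0.68, 0.132) or 3 (-0.73, 0.056). The count of called members was 3 without deficient array 5 or adequate array 2, and 12 without deficient array 4. Shares of all probe sets called in those fits are not given, so these counts are not read as a result about the members. With the narrow deficient arrays 1 and 2 both left out, 0 of 35 members were called (0.582% of all probe sets were). Ifi27l2b then had a difference of -0.87 (adjusted p = 0.0582), Ifi44l -1.22 (0.104), Rtp4 -0.67 (0.276), Igtp -0.77 (0.138), Psmb8 -0.67 (0.0758) and Psmb9 -0.67 (0.157). Quantile normalization, which gives all arrays 1 spread, left all 6 below adequate and called (Ifi27l2b -1.08, adjusted p = 0.000118, and Psmb9 -0.51, adjusted p = 0.0462). Without the intensity trend in limma's variance prior, 0 members were called.

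**Figure D2:**
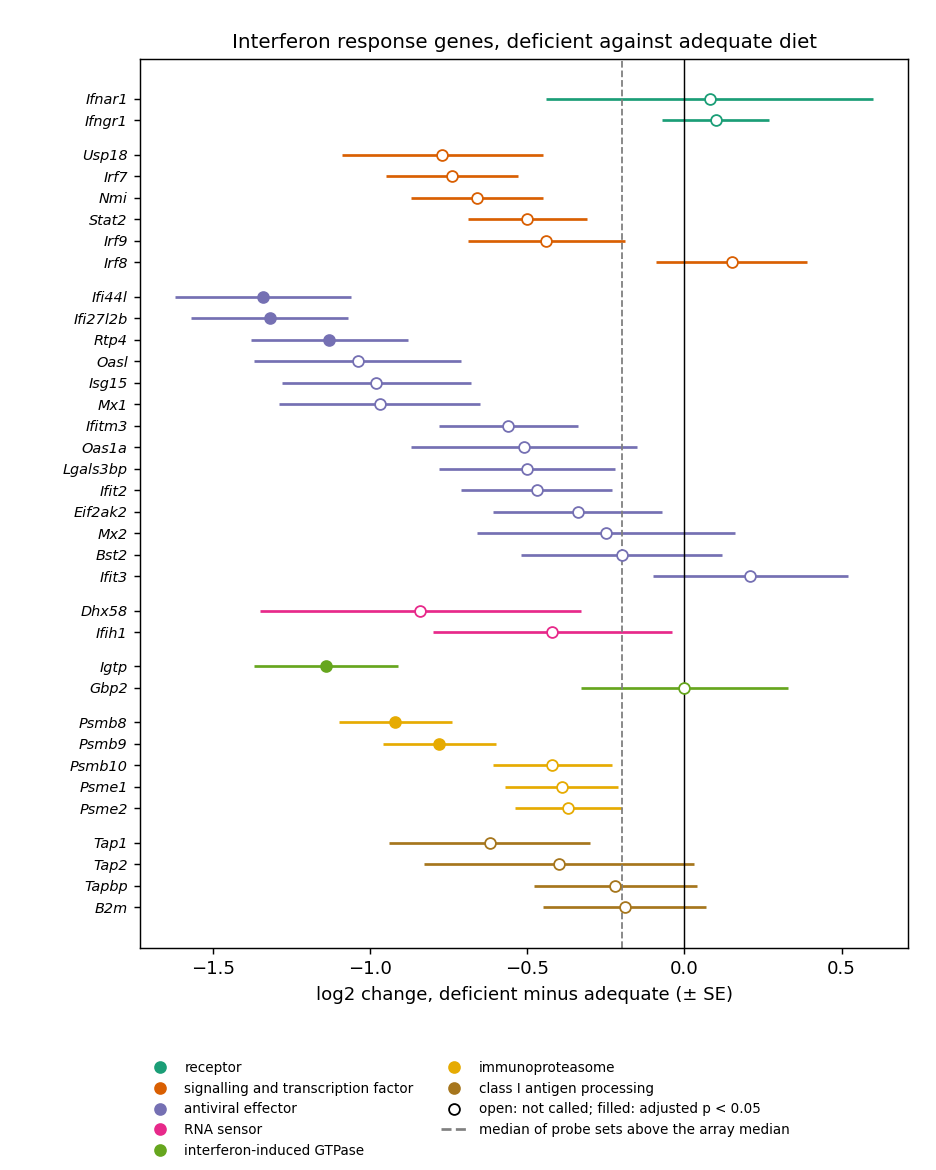
Difference of deficient from adequate livers for each of the 35 measured members (horizontal axis, log2 units), with bars of 1 SE, grouped by role and with called members marked. The 6 called members lie between -0.78 and -1.34, and 30 of the 35 points lie below 0.

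In the remaining roles 0 members were called. Among the signalling genes Irf7, which drives type I interferon genes, stood at 1.86, 1.69, 1.37, 2.53 and 2.4 in deficient livers and at 2.61 to 3.08 in adequate livers (median 2.86). All 5 deficient arrays were lower, with a difference of -0.74 ± 0.21 (unadjusted p = 0.00104, not called). Usp18, which removes Isg15 from proteins and damps receptor signalling, differed by -0.77 ± 0.32, and the STAT-interacting protein Nmi by -0.66 ± 0.21. The STAT partners Stat2 (-0.5 ± 0.19) and Irf9 (-0.44 ± 0.25) were not called, and Irf8, a factor of macrophage lineages, had a difference of 0.15 ± 0.24. The median over these 6 was -0.58. The receptor subunits Ifnar1 (0.08) and Ifngr1 (0.1) were at or just above 0, but for both the sign changed with the run. First-run arrays alone gave 0.82 ± 0.78 for Ifnar1 and 0.47 ± 0.21 for Ifngr1. Second-run arrays alone gave -0.86 ± 0.53 and -0.3 ± 0.25, and none of these 4 values was called. Ifnar1 also had a stray value of -2.6 on adequate array 5, a first-run array, while the other adequate arrays stood at 0.59 to 1.53. Ifngr1 stood at 2.81, 3.2, 3.28, 4.13 and 3.86 on deficient arrays and at 3.25 to 3.71 on adequate arrays, so that the groups overlapped.

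Other antiviral effectors included Oasl (-1.04 ± 0.33), Isg15 (-0.98 ± 0.3) and Mx1 (-0.97 ± 0.32), none of them called. Isg15 is a ubiquitin-like modifier, and Mx1 is a GTPase that traps viral ribonucleoproteins. The membrane protein Ifitm3 differed by -0.56 ± 0.22, the 2',5'-oligoadenylate synthetase gene Oas1a by -0.51, Lgals3bp by -0.5 and Ifit2 by -0.47. The double-stranded RNA kinase gene Eif2ak2 (-0.34), Mx2 (-0.25) and Bst2 (-0.2) were nearer to 0, and Ifit3 was at 0.21. Probe sets of B2m and Dhx58 are of types that can also bind related transcripts, so the gene behind their signal is uncertain.

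Both RNA sensors were below 0. Dhx58 stood at -0.47, -0.52, -3.18, 0.95 and 1.5 on deficient arrays and at -0.38 to 1.53 on adequate arrays, and its difference of -0.84 ± 0.51 had a wide error. Another probe set of Dhx58, with a lower mean signal, had a difference of 1.47 ± 0.78, opposite in sign and also not called. Ifih1 differed by -0.42. In the immunoproteasome the third catalytic subunit, Psmb10, differed by -0.42, and the activator subunits Psme1 and Psme2 by -0.39 and -0.37. All 5 immunoproteasome genes were below 0 with an unadjusted p under 0.05. The peptide transporter gene Tap1 stood at -0.79, 0.9, 1.43, 2.59 and 2.22 on deficient arrays and at 1.67 to 2.65 on adequate arrays, which overlap, and its difference was -0.62 ± 0.32. Tap2 (-0.4), Tapbp (-0.22) and B2m (-0.19) were closer to 0. B2m, the light chain of class I molecules, had a high signal throughout, at 7.42 to 8.83 in deficient livers.

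Read by run, members were called only in the second run of the diet experiment. Within that run 8 members were called lower (1.38% of all probe sets were called) and 34 of 35 were below 0, with a median of -1.06 against -0.34 for all probe sets. Those called were Bst2 (-1.43), Ifi27l2b (-1.93), Igtp (-1.95), Irf7 (-1.22), Isg15 (-2.13), Psmb8 (-1.34), Rtp4 (-1.76) and Usp18 (-1.79). In the first run 0 members were called (0.24% of all probe sets were), 17 of 35 were below 0, and the median was 0.01. There Ifi27l2b differed by -0.72 ± 0.3 (adjusted p = 0.478), Psmb8 by -0.51, Psmb9 by -0.56, Rtp4 by -0.56 and Igtp by -0.43. Ifi44l alone among the 6 was as far below adequate in the first run (-1.34 ± 0.39, adjusted p = 0.221) as in the second (-1.47 ± 0.38, adjusted p = 0.053), although it was called in neither. Psmb9 was also called in neither run, with -1.03 ± 0.27 in the second (adjusted p = 0.0535, limma).

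The test of the difference between runs called 1 member lower, Bst2 (0.0507% of all probe sets were). Bst2, which tethers budding virions to the cell surface, stood at 4.54, 4.49 and 5.13 on second-run deficient arrays and at 5.97 and 7.5 on first-run deficient arrays. Adequate arrays stood at 5.51 to 6.2, so the second-run deficient arrays lay below all of them, while of the first-run ones deficient array 4 lay among them and array 5 above. The difference between runs was -2.49 ± 0.44 (adjusted p = 0.0125, limma). It was not called without deficient array 5 (-1.73, adjusted p = 0.133), without deficient array 2 (-2.38, 0.0676), or without adequate array 1 (-2.45, 0.108) or 2 (-2.54, 0.108). It was not called under quantile normalization either (-1.75, adjusted p = 0.168). Without deficient array 1 or 3 the count of called members was 2, with no share of all probe sets beside it. For the other members a difference between runs was not called, and the median of that difference was -0.88 over the members and -0.5 over all probe sets above the array median.

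Other lists moved with the members, and their part in the result was not tested. Of 31 genes of the constitutive proteasome, which interferon does not induce, 30 were below 0 in deficient livers (median -0.32, 0 called, 12 at an unadjusted p under 0.05). Its median was -0.61 in the second run and -0.07 in the first. Of 12 Kupffer cell and macrophage markers, 10 were below 0 (median -0.15, 0 called). In the second run all 12 were lower (median -0.82) and in the first 2 of 12 were (median 0.42). Their median on single arrays ranged from 1.96 to 3.88 in deficient and from 2.65 to 3.77 in adequate livers. Of 47 other interferon-induced genes that are not members, 37 were below 0 (median -0.4) and 2 were called lower. These were Parp9 (-1.34 ± 0.2, adjusted p = 0.000217, limma) and Dtx3l (-0.99 ± 0.2, adjusted p = 0.00485, limma), partner proteins that modify histones and support interferon signalling. Parp9 stood at 2.02, 1.59, 2.7, 3.09 and 2.32 on deficient arrays and at 3.44 to 4 on adequate arrays, so that the groups did not overlap. Of 14 other receptor and signalling genes, 11 were below 0 and 0 were called. The 6 reference genes of vitamin A status, Lrat and Cyp2c22 among them, were all below 0 in both runs. Their median was -1.66 in the first and -3.14 in the second (0.04 and -0.34 for all probe sets). Cyp2c22 was called for the difference between runs (-2.4 ± 0.41, adjusted p = 0.00876, limma). It stood at 3.86 and 3.06 on first-run and at 0.67, 1.07 and 0.9 on second-run deficient arrays. Whether the runs differed in depth of deficiency was not tested.

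**Figure D3:**
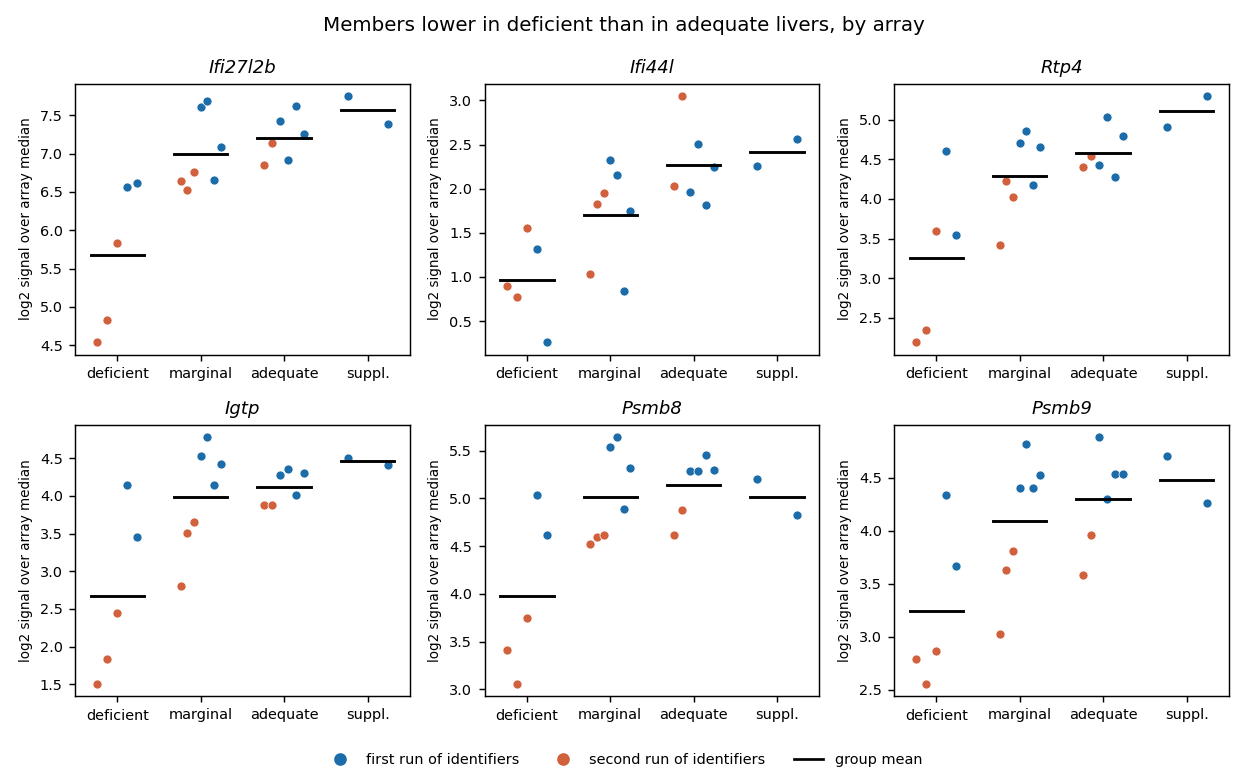
Level of the 6 called members on each array of the diet experiment (vertical axes, log2 signal over the array median), by diet, with arrays coloured by run of identifiers and bars at group means. All 5 deficient arrays lie below every adequate array for Ifi27l2b and Ifi44l, and the lowest points for Igtp, Psmb8 and Psmb9 are deficient arrays of the second run, whose adequate arrays are also low.

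For the marginal diet no member differed from adequate beyond the test's threshold. In marginal livers 0 members were called, as for 0% of all probe sets, and 1 member had an unadjusted p under 0.05 (1.43% of all were lower at that p). The median change was -0.04, with 13 members above and 22 below 0. By run it was 0.06 in the first, with 14 of 35 below 0 (0.11 for all probe sets). In the second it was -0.4, with 32 of 35 below 0 (-0.1 for all probe sets). In either run 0 members were called, against 0% and 0.00422% of all probe sets. The 3 members with the lowest p were Ifi44l (-0.58 ± 0.26, unadjusted p = 0.0298), Irf8 (0.42 ± 0.22, 0.0681) and Irf7 (-0.26 ± 0.19, 0.175). In supplemented livers 0 members were called against adequate (0.0109% of all) and 0 at an unadjusted p under 0.05 (3.63% of all), with a median of -0.04. The lowest p there belonged to Psmb8 (-0.42 ± 0.25, 0.0943), Psme2 (-0.26, 0.269) and Irf8 (0.36, 0.279). With 2 supplemented rats this comparison had little precision.

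Set against marginal livers, deficient livers had 5 members called lower (1.6% of all probe sets were) and a median of -0.45, against -0.25 among all probe sets above the array median, of which 77.4% were below 0. In the first run the median was -0.28 with 0 called, against -0.07 and 0.275% called for all probe sets. In the second it was -0.67 with 4 called, against -0.24 and 0.836% for all probe sets. The 5 were Ifi27l2b (-1.19, adjusted p = 0.00543), Igtp (-1.11, 0.00393), Rtp4 (-0.92, 0.0394), Psmb8 (-0.89, 0.00385) and Psmb9 (-0.66, 0.0394, all limma). The deficient arrays are those of the comparison with adequate livers, so the same low arrays enter both. On marginal arrays Ifi27l2b ranged from 6.53 to 7.68 (median 6.76) and Igtp from 2.81 to 4.78 (median 4.15), and both ranges overlapped with the deficient arrays. The calls of Ifi27l2b, Igtp and Psmb8 held with each array left out. Leaving out deficient array 1, 2 or 5, or marginal array 2, 3, 4, 5 or 7, ended the call of Rtp4 (-0.91 to -0.73, adjusted p = 0.063 to 0.164). Each of these arrays or marginal array 6 ended that of Psmb9 (-0.68 to -0.6, adjusted p = 0.0516 to 0.164). Thus 3 members were called without any of those 8 arrays in turn, and 10 without deficient array 4. Shares of all probe sets called in those fits are not given. With deficient arrays 1 and 2 left out together 0 were called, and Ifi27l2b differed by -0.71 (adjusted p = 0.159).

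Between the extremes of the diet, 33 of 35 members were higher in supplemented than in deficient livers, with a median of 0.47, and 0 were called (0.42% of all probe sets were). Among all probe sets above the array median the median was 0.22 and 29.5% were below 0. The members' median was 0.16 in the first run alone, which holds both supplemented arrays, and 0.26 without the narrow deficient arrays 1 and 2. At an unadjusted p under 0.05, 9 members were higher, against 5.83% of all probe sets. The 3 lowest p belonged to Ifi27l2b (1.44 ± 0.36, 0.000387), Rtp4 (1.42 ± 0.36, 0.000405) and Ifi44l (1.54 ± 0.41, 0.000673). On the 2 supplemented arrays Ifi27l2b stood at 7.75 and 7.39, Rtp4 at 4.91 and 5.3, and Ifi44l at 2.26 and 2.56, each above all 5 deficient arrays. Of the other interferon-induced genes, Parp9 was called higher (1.37 ± 0.29, adjusted p = 0.0183, limma). Without deficient array 4, 4 members were called, and without deficient array 3, 2 were, with no share of all probe sets beside these counts.

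The time course asked what a dose of RA did in deficient livers, and each time was compared with the same 3 vehicle rats. Ifi27l2b rose, and Rtp4 rose at 6 h and was lower at 16 h than at 3 h, while the median of the members moved little until 10 h. Ifi27l2b stood at 5.94, 5.39 and 5.27 on the vehicle arrays. After RA it stood at 6.56, 5.91 and 6.6 at 3 h, at 7.21, 6.46 and 7.25 at 6 h, at 6.57, 6.59, 7.3 and 6.44 at 10 h and at 6.84, 6.68 and 7.54 at 16 h. In total 12 of 13 RA arrays were above every vehicle array, the exception being 1 array at 3 h.

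The fitted change of Ifi27l2b was 0.82 ± 0.27 at 3 h (unadjusted p = 0.00448, not called), 1.44 ± 0.27 at 6 h (adjusted p = 0.0102), 1.19 ± 0.25 at 10 h (adjusted p = 0.0191) and 1.48 ± 0.27 at 16 h (adjusted p = 0.00244, all limma). Over all RA times it was 1.24 ± 0.21, or 2.36-fold higher (adjusted p = 0.00405, limma). It was the only member called over all times, where 0.0831% of all probe sets were called higher. For scale, adequate livers of the diet experiment ranged from 6.85 to 7.62, but that was another experiment, so the 2 sets were not tested against each other. Without vehicle array 2, which went against its label, the changes were 1.37 at 6 h (adjusted p = 0.0324), 1.12 at 10 h (0.082) and 1.41 at 16 h (0.0189). Without vehicle array 1, with the high 3' to 5' difference, they were 1.65 (0.00578), 1.4 (0.00828) and 1.69 (0.000877). At 6 h the call was also lost without 6 h array 1 (1.33, adjusted p = 0.101), 6 h array 3 (1.3, 0.115) or vehicle array 3 (1.31, 0.106). At 10 h it was lost without 10 h array 3 (1, adjusted p = 0.112) or vehicle array 3 (1.06, 0.247). Over all times it was lost only without vehicle array 3 (1.1, adjusted p = 0.14), and at 16 h it held with each array left out (adjusted p up to 0.0291). Over all times 2 members were called without 16 h array 3, with no share of all probe sets beside that count. Without the narrow 16 h arrays 1 and 2 the 16 h change was 2.01 (adjusted p = 0.00284). Without the intensity trend it was not called at any time (adjusted p from 0.136 at 16 h to 0.505 at 6 h).

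Rtp4 stood at 4.27, 4.58 and 4.24 on the vehicle arrays, at 5.37, 5.06 and 4.92 at 3 h, at 5.17, 5.74 and 5.61 at 6 h and at 4.98, 5.31, 5.15 and 4.84 at 10 h. All 10 of these RA arrays were above every vehicle array. At 16 h it stood at 3.65, 3.5 and 4.59, and 2 of 3 arrays lay below the vehicle arrays. It was called only at 6 h (1.14 ± 0.25, 2.21-fold higher, adjusted p = 0.0349, limma), with 0.75 ± 0.25 at 3 h, 0.7 at 10 h and -0.45 at 16 h. The 6 h call held without vehicle array 2 (1.25, adjusted p = 0.0324) and was lost without vehicle array 1 (1.1, 0.105) or 3 (1.08, 0.221), or 6 h array 1 (1.31, 0.0521), 2 (1.03, 0.248) or 3 (1.09, 0.209). With the replicate number as a block the adjusted p was 0.0747.

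**Figure D4:**
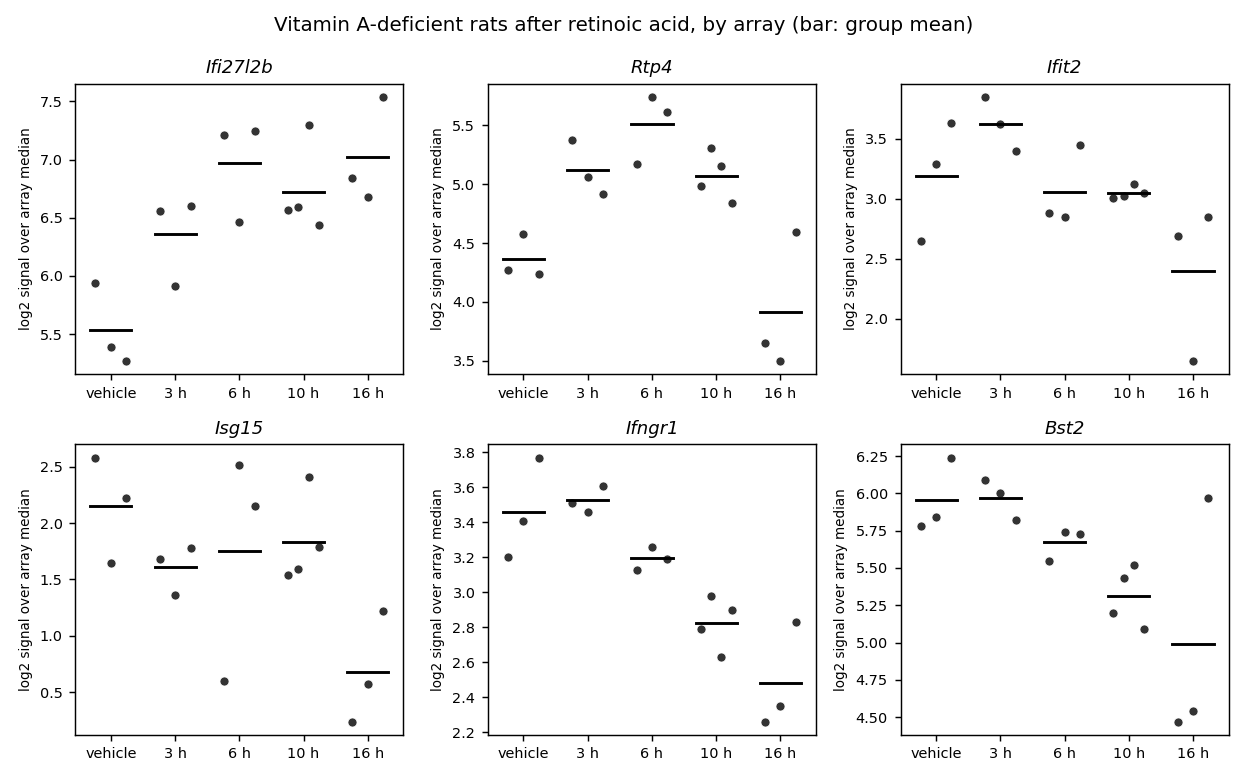
Levels of members on each array of the RA time course in deficient rats (vertical axes, log2 signal over the array median), by hours after RA, with vehicle at 0 h and bars at group means. Ifi27l2b lay above its vehicle arrays on 12 of 13 RA arrays, and Rtp4 was above them from 3 to 10 h and mostly below at 16 h.

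At 3 h 0 members were called (0.0762% of all probe sets were) and 2 were higher at an unadjusted p under 0.05, against 1.94% of all probe sets. The third in order of p was Ifit2 (0.43 ± 0.3, 0.163), and the median change was -0.03. At 6 h the 2 called members, Ifi27l2b and Rtp4, were both higher, where 0.118% of all probe sets were called higher. The median was -0.14, with 12 members above and 23 below 0, and -0.12 among all probe sets above the array median. The members' median was 0.04 without 6 h array 1, -0.03 without vehicle array 3 and -0.28 without vehicle array 1. At 10 h Ifi27l2b was the only call (0.107% of all probe sets were called higher) and the median was -0.27, as it was among all probe sets above the array median. Members that were not called included Mx1 (0.01 at 3 h and 0.02 at 10 h) and Stat2 (-0.05 and -0.63). The immunoproteasome genes Psmb8 (0.32, 0.37 and 0.31 at 3, 6 and 10 h) and Psmb9 (0, 0.19 and 0.3), which were low in deficient livers, had changes of under 0.4 that were not called, and Igtp had 0.3, 0.63 and 0.42. Kupffer cell markers were below 0 in 11 of 12 cases at 6 h (median -0.21, 0 called) and in 12 of 12 at 10 h (median -0.57, 0 called), and their part in the results was not tested.

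At 16 h most members read lower, as did most expressed transcripts. Ifngr1, Isg15 and Bst2 were called lower (5.89% of all probe sets were) and Ifi27l2b was called higher (0.222% were). The median over the 35 was -0.55, with 33 below 0, and among the 12752 probe sets above the array median it was -0.61, with 86.8% below 0. The count of members called lower was thus near the background.

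Ifngr1, a subunit of the interferon gamma receptor, stood at 3.2, 3.41 and 3.77 in vehicle livers and at 2.26, 2.35 and 2.83 at 16 h, without overlap (-0.98 ± 0.25, adjusted p = 0.0204, limma). Isg15 stood at 2.58, 1.65 and 2.22 against 0.24, 0.57 and 1.22, also without overlap (-1.48 ± 0.44, adjusted p = 0.0412, limma). Bst2 stood at 5.78, 5.84 and 6.24 against 4.47, 4.54 and 5.97, where the third 16 h array lay within the vehicle range (-0.96 ± 0.26, adjusted p = 0.0296, limma). None of these calls held without the narrow 16 h arrays 1 and 2. Without both, Ifngr1 was at -0.63 (adjusted p = 0.588), Isg15 at -0.93 (0.71) and Bst2 at 0.01 (0.994), and the median of the members was 0. Under quantile normalization they were at -0.4, -1.28 and -0.4, with none called. Without vehicle array 2 they were at -1, -1.72 and -1.02 (adjusted p = 0.0863, 0.085 and 0.0925). Without vehicle array 3 all 3 calls were lost (Ifngr1 -0.82, adjusted p = 0.15, Isg15 -1.44, 0.157, and Bst2 -0.82, 0.172), and Isg15 was also lost without vehicle array 1 (-1.26, 0.0924). Without 16 h array 1 the values were -0.87, -1.26 and -0.7 (adjusted p = 0.0758, 0.153 and 0.182), and without array 2 they were -0.91, -1.42 and -0.74 (0.0555, 0.0915 and 0.147). The number of called members was 1 without 16 h array 1, vehicle array 2 or vehicle array 3, 2 without 16 h array 2, and 11 without 16 h array 3. Leaving out 16 h array 3 leaves only the narrow arrays 1 and 2. Shares of all probe sets are not given beside these counts.

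Several uncalled members were further down at 16 h, with wide errors. Dhx58 was at -1.93, Tap1 at -1.81, Usp18 at -1.52, Ifit3 at -1.41, Mx2 at -1.26 and Irf7 at -1.21. Each had a single 16 h array far below the others. That was array 3 for Dhx58 (-4.07), Ifit3 (-3.22) and Mx2 (-1.48), and array 1 for Tap1 (-2.2), Usp18 (-1.32) and Irf7 (-1.01). For each gene another 16 h array lay within or above the vehicle range. The 5 immunoproteasome genes had a median change of -0.22 (5 of 5 below 0, 0 called), but their arrays were split. Their median on single arrays was 4.04, 3.97 and 4.78 at 16 h and 4.09, 4.78 and 4.51 in vehicle livers. Psmb9, Psmb10 and Psme1 lay below every vehicle array on the narrow arrays 1 and 2 and above every one on array 3. Psmb8 and Psme2 did not do so on all 3 arrays. Of 31 constitutive proteasome genes 30 were below 0, with a median of -0.46. Among lists that hold no member, 4 of 14 other receptor and signalling genes were called lower, which were Jak1 (-0.82), Stat3 (-1.41), Irf1 (-1.33) and Irf2 (-1.21). Of 48 other interferon-induced genes 4 were called lower, with Cxcl9 (-2.25, adjusted p = 0.00586, limma), Slfn4 (-2.15), Irgm (-1.06) and Ifitm1 (-0.7), and the median was -0.49. All 12 Kupffer cell markers were below 0 (median -0.8) and 4 were called, namely Clec4f, C1qb, Cd5l and Lyz2. Their median on single arrays was 1.93 to 2.8 at 16 h and 2.94 to 3.1 in vehicle livers. Markers of other cells were lower too. All 6 sinusoidal endothelial markers were below 0 (median -0.68, Kdr called), as were 6 of 8 stellate cell markers (median -1.39, Col3a1 and Reln called) and 4 of 5 dendritic cell markers (median -1.07, Cd83 called). Hepatocyte markers had a median of -0.08, with Alb called higher and Apob lower. The part of any cell type in the lower values of the members was not tested.

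From 3 h to 16 h after RA, 4 of 35 members were called lower, a count near the background (8.41% of all probe sets were called lower, and 18.4% of those above the array median were called in either direction). Rtp4 was at -1.2 ± 0.25 (adjusted p = 0.0034), Ifit2 at -1.22 ± 0.3 (0.0117), Ifngr1 at -1.05 ± 0.25 (0.00952) and Bst2 at -0.98 ± 0.26 (0.0201, all limma). Ifit2, which hinders translation of viral RNA, stood at 3.85, 3.62 and 3.4 at 3 h and at 2.69, 1.65 and 2.85 at 16 h, without overlap, and at 2.65, 3.29 and 3.63 in vehicle livers. The median over the members was -0.59, and over all probe sets above the array median -0.66. Without the narrow 16 h arrays 1 and 2 the changes were -0.52, -0.77, -0.7 and 0 in the same order, with adjusted p of 0.578, 0.47, 0.435 and 0.998. The calls of Rtp4 and Ifngr1 held with each array left out. Ifit2 was lost without 3 h array 1 (-1.11, adjusted p = 0.0783) or 16 h array 2 (-0.85, 0.0845), and Bst2 without 3 h array 1 (-0.92, 0.0947) or 2 (-0.96, 0.0635) or 16 h array 1 (-0.71, 0.143) or 2 (-0.75, 0.119). The count was 2 without 3 h array 1 and 11 without 16 h array 3. The latter fit has only the narrow arrays 1 and 2 at 16 h, and shares of all probe sets are not given beside these counts. Irf1, a transcription factor that is no member, went from 4.5, 3.96 and 4.26 at 3 h to 0.6, 0.63 and 2.55 at 16 h (-2.98 ± 0.37, adjusted p = 2.74e-05, limma). Its lowest values, 0.6 and 0.63, were on the narrow 16 h arrays 1 and 2. On the vehicle arrays Irf1 stood at 3.1, 2.57 and 2.1, so every 3 h array lay above every vehicle array.

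The intravenous experiment asked how fast a small dose of RA acted in rats on a stock diet. Oasl was higher at 60 and 90 min, and other members were not called. Oasl (1377497_at) stood at 0.99 and 1.03 on the 2 vehicle arrays, at 1.38, 1.96 and 2.04 at 30 min, at 2.11, 2.34 and 2.48 at 60 min and at 1.98, 2.03 and 2.59 at 90 min. All 9 RA arrays were above both vehicle arrays. The change was 0.78 ± 0.24 at 30 min (unadjusted p = 0.00507, not called), 1.3 ± 0.24 at 60 min (2.46-fold, adjusted p = 0.026), 1.19 ± 0.24 at 90 min (2.28-fold, adjusted p = 0.0422) and 1.09 ± 0.2 over all times (adjusted p = 0.0369, all limma). Among all probe sets 0.22% were called higher at 60 min, 0.334% at 90 min and 0.246% over all times, so 1 of 35 members is a small count.

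The Oasl calls depended on each vehicle array. Without vehicle array 1 or 2 the changes were 1.28 and 1.32 at 60 min (adjusted p = 0.201 and 0.142), 1.17 and 1.21 at 90 min (0.253 and 0.202), and 1.07 and 1.11 over all times (0.294 and 0.224). At 60 min the call was also lost without 60 min array 2 (1.28, adjusted p = 0.0797) or 3 (1.22, 0.112). At 90 min it was lost without 90 min array 1 (1.3, adjusted p = 0.0519), 2 (1.27, 0.0756) or 3 (1, 0.113). Over all times it was lost without 30 min array 2 (1.06, 0.0602) or 3 (1.05, 0.0559), 60 min array 2 (1.09, 0.059) or 3 (1.06, 0.065), or 90 min array 2 (1.12, 0.0532). Without the intensity trend it was not called at any time (adjusted p from 0.206 to 0.253).

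At 30 min 0 members were called (0.0879% of all probe sets were) and 3 were higher at an unadjusted p under 0.05, against 2.72% of all probe sets. Beside Oasl these were Mx1 (1.1 ± 0.35, 0.00766) and Ifitm3 (0.37 ± 0.17, 0.0407). Mx1 stood at -0.18 and 0.5 in vehicle livers, at 1.28, 0.86 and 1.62 at 30 min, at 1.61, 1.8 and 0.75 at 60 min and at 1.04, 0.36 and 0.84 at 90 min. All its arrays at 30 and 60 min were above both vehicle arrays, and 1 array at 90 min was not. At 30 and at 60 min 27 of 35 members were above 0, with medians of 0.25 and 0.44, while all probe sets above the array median had medians of -0.12 and -0.11. The 30 min median was 0.03 without 30 min array 3 and 0.1 without vehicle array 1, and the 60 min median was 0.22 without vehicle array 1. The 6 signalling members were all above 0 at 60 min (median 0.51) and 11 of 14 antiviral effectors were (median 0.52), but only Oasl was called. By 90 min the median was -0.02 with 17 members above and 18 below 0. Over all times 25 of 35 members were above 0, with a median of 0.23, or 0.12 without vehicle array 1.

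From 30 to 90 min 27 of 35 members had a change below 0 (median -0.21) and 0 were called (0.25% of all probe sets were). That median was -0.02 without 30 min array 3 and -0.07 without 90 min array 2. At an unadjusted p under 0.05 3 members were lower, against 4.22% of all probe sets. They were Ifitm3 (-0.41 ± 0.15, 0.0155), Ifnar1 (-0.68 ± 0.25, 0.0183) and Ifi44l (-0.61 ± 0.24, 0.0228). Ifi27l2b, the member that rose in deficient rats, was at 6.36 and 6.55 in vehicle livers, at 6.59, 6.12 and 6.86 at 30 min, at 6.34, 6.76 and 6.94 at 60 min and at 5.78, 6.76 and 6.15 at 90 min. These arrays overlapped at each time, and the dose, route, diet and times all differ from the other course.

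**Figure D5:**
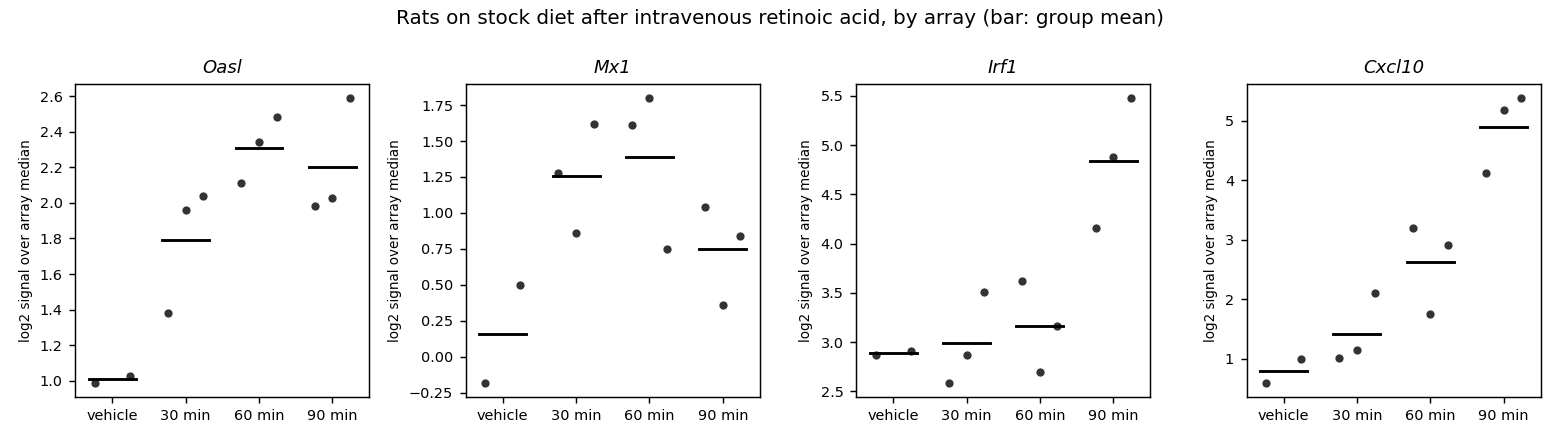
Levels of the members Oasl and Mx1 and of Irf1 and Cxcl10, which are not members, on each array of the intravenous experiment (vertical axes, log2 signal over the array median), with bars at group means. Oasl lay above both vehicle arrays on all 9 RA arrays, and Irf1 and Cxcl10 were highest at 90 min.

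Outside the list, Irf1 and the chemokine gene Cxcl10, both early interferon gamma targets, were higher at 90 min. Irf1 stood at 2.87 and 2.91 in vehicle livers and at 4.16, 4.88 and 5.48 at 90 min (1.95 ± 0.34, adjusted p = 0.0179, limma). Cxcl10 stood at 0.6 and 0.99 in vehicle livers, at 3.2, 1.76 and 2.91 at 60 min and at 4.12, 5.18 and 5.38 at 90 min (4.09 ± 0.43, adjusted p = 0.000258, limma). Both are also targets of other inflammatory signals. Of 5 neutrophil markers, 3 were tested and all 3 were above 0 at 90 min, with a median of 2.02 and S100a9 called (2.3, adjusted p = 0.0114, limma). The median of the 5 markers on single arrays was -1.27 to -1.15 in vehicle livers and -0.62 to 0.7 at 90 min. Kupffer cell markers were above 0 in 4 and below 0 in 8 of 12 cases at 90 min, with 0 called. The part of neutrophils in these values was not tested.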

How the data were processed

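Values are the log2 signals the authors deposited for 47 arrays. GCOS (no version given) is the tool that the submitters' processing notes name. The log base and the centring on each array's median are read from the values. Each array has a floor value, shared by 5 to 3172 probe sets, and no member lay at it. The number of arrays per group limits the precision.

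Of 31099 probe sets, 20832 matched 1 gene, 436 several and 9831 were unnamed here, and 57 control probe sets were left out. A probe set was tested where 2 or more arrays of the experiment had it over their 40th percentile (27595, 28869 and 22763). The fits, separate for the 3 experiments, used limma 3.58.1 and R 4.3.3 (lmFit on group means, run as a covariate in the diet experiment, eBayes with an intensity trend). P-values were Benjamini-Hochberg adjusted over all probe sets tested, and the threshold was 0.05. The scripts were tested on simulated data. When the tests were planned the values were taken to be on a linear scale, and they were found to be log2, so no logarithm was applied.

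The members and gene lists were chosen with earlier results of these data known. Genes named were all called members per comparison, or the 3 with the lowest unadjusted p where none was called. Values on every array are given for members called in any comparison and for the member of each role with the lowest p in deficient against adequate livers. From other lists up to 4 called genes were named. Mx1, Cxcl10, Irf1 and the uncalled members named at each time were added after their values were seen. Replicate numbers did not pair the arrays. Promoter windows are from RefSeq (GRCr8). Alternatives were other normalizations, filters, variance models and probe set means, each array left out, the replicate block and the runs. Fits that left out narrow arrays or arrays with a high 3' to 5' difference, and arrays scaled to one standard deviation, were chosen after seeing the data.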

Additional observations from a re-analysis of the deposited data

Results flagged for a closer look

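Of 140 groups of 4 to 10 arrays examined, 7 had an array far from the others, and chance gives about 7. Ifnar1 stood at 1.88 on marginal array 5, where the nearest of the 7 arrays was at 0.97, and at -2.6 on adequate array 5, where the nearest was at 0.59. Nmi stood at 2.28 on adequate array 4 (nearest 2.8) and at 2.78 on deficient array 4 (nearest 2.03). Mx1 stood at 0.08 on adequate array 3 (nearest 1.25). Tap2 stood at -0.94 on adequate array 1 (nearest 1.22) and at -1.9 on deficient array 2 (nearest 0.69). None of these values lay at the floor of its array.

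For 5 results the difference between groups was itself called. The difference of deficient from adequate livers for Bst2 was -2.49 in the second run relative to the first. Between 16 h and 3 h after RA the change was -1.05 for Ifngr1, -1.22 for Ifit2, -1.2 for Rtp4 and -0.98 for Bst2.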

How the results depend on the processing

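Values are counts of called members, with the reported count in brackets, unless named as medians. Shares of all probe sets called are not given beside them, so a changed count is not read as a result about the members. Without an intensity trend 0 members were called in every comparison. For deficient against adequate (6), 0 were called in the first run, without deficient arrays 1 and 2, or without these, deficient 5 and adequate 5. Run by run the medians were 0.01 (first) and -1.06 (second). For deficient against marginal (5), 3 were called under quantile normalization, arrays scaled to one standard deviation, the run as a random block or without deficient and adequate arrays 5, 1 without the run covariate, and 0 in the first run or without deficient arrays 1 and 2 (alone, or with both arrays 5). The marginal median was -0.4 in the second run. For supplemented against deficient (0), 2 were called under quantile normalization or scaled arrays, 3 with arrayWeights and 1 without both arrays 5. The difference between runs (1) gave 0 under quantile normalization, scaled arrays and each of the 3 sets left out. At 3 h (0) arrayWeights gave 1, at 6 h (2) the mean of a gene's probe sets gave 1, at 10 h (1) quantile normalization gave 3 and arrayWeights 5. At 16 h (4) quantile normalization gave 1 (median -0.13), scaled arrays 2, and leaving out 16 h arrays 1 and 2 gave 2 (median 0), with Bst2 reversed to 0.01. Over all RA times (1) quantile normalization gave 2, arrayWeights 5 and the 16 h arrays left out 2. For 16 h against 3 h (4) quantile normalization gave 1 (median -0.12) and the 16 h arrays left out gave 1 (median -0.03). The cause was not tested.

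With single arrays left out, counts ranged from 3 to 12 (deficient against adequate), 3 to 10 (against marginal), 0 to 4 (supplemented against deficient), 0 to 2 (between runs, 6 h and all RA times), 0 to 1 (10 h, 60 min and all intravenous times), 1 to 11 (16 h) and 2 to 11 (16 h against 3 h), and 0 to 0 at 90 min. Shares of all probe sets called are not given beside the counts of this paragraph. A lone array left in a group was assumed to vary like the others. With the replicate number as a block 5 members were called for deficient against adequate, 4 against marginal and 1 at 6 h, with medians of 0.35 (supplemented against adequate) and 1.02 (against deficient). No pair of same-numbered arrays had a correlation over 0.1 in their deviations (0 of 22, 30 and 15 pairs), so the numbers do not pair them. The block ended 3 of 27 single calls. Of 278 single-gene results under the alternatives, 168 kept their call, 109 lost it and 1 reversed.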
